A study of Mus musculus with 9 samples.

Results

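Nitric oxide and arginine metabolism was followed through 9 genes, among them *Nos2*, *Gch1*, *Ass1*, *Asl*, *Slc7a2*, *Odc1* and *Sat1*, out of 54532 genes with a value in RNA-seq of RAW264.7 cells. They were taken by gene symbol for their place in the pathway. Of the 9, 6 reached the level required for testing, while *Slc7a2* was too low and is described by its values alone.

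RAW264.7 is a mouse macrophage line, wild type in the labels and derived from ascites, and every library came from this 1 line. The 3 groups were untreated control cells, cells kept for 6 h with the bacterial endotoxin LPS at 1 μg/ml, and cells kept for 6 h with LPS at 1 μg/ml together with 400 μg/ml of G-CDs, carbon dots prepared from *Glycyrrhiza* by the hydrothermal route. Each group had 3 libraries. The labels of the last group name G-CDs in the title and list LPS alone as the treatment, and no group received G-CDs without LPS. Neither the labels nor the methods state that replicates were separate cultures, so the p-values below measure the spread between libraries, which may be technical.

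Arginine stands at a branch point in macrophages. Inducible nitric oxide synthase, the product of *Nos2*, turns it into nitric oxide and citrulline with tetrahydrobiopterin as a cofactor, and the synthase is a classical product of macrophages activated by endotoxin. Arginine also gives rise to ornithine, which ornithine decarboxylase feeds into polyamines. Argininosuccinate synthase and lyase rebuild arginine from citrulline.

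Promoter sequences are shown for *Ass1* and *Gch1*, since among the 4 members whose promoter was in the RefSeq table used here (*Ass1*, *Gch1*, *Odc1* and *Sat1*) these were the ones whose window held any of 4 motifs searched on both strands. Each window runs from 250 bases before to 50 bases after the annotated start, 300 bases in GRCm38.p6, printed 5′ to 3′ on the gene's strand with motif matches in capitals. The *Ass1* window (chr2:31470020-31470319, plus strand) holds the E-box CACGTG, found in 7.15% of the 32851 promoters of this length. The *Gch1* window (chr14:47189364-47189663, minus strand) holds the TATA box TATAAA on the opposite strand, a motif found in 13.6% of promoters, and then a match to the NF-κB consensus, found in 4.51%. The antioxidant response element core TGACNNNGC, present in 12.4% of promoters, matched in none of the 4 windows, and the *Odc1* and *Sat1* windows matched none of the 4 motifs. These matches describe the letters of the windows and no binding was measured.

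Ass1: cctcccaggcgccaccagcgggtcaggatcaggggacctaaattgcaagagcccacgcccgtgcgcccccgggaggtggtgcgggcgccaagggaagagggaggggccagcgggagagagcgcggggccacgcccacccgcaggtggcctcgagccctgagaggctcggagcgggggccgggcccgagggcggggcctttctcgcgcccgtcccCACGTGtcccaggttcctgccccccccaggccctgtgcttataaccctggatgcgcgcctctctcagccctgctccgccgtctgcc

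Gch1: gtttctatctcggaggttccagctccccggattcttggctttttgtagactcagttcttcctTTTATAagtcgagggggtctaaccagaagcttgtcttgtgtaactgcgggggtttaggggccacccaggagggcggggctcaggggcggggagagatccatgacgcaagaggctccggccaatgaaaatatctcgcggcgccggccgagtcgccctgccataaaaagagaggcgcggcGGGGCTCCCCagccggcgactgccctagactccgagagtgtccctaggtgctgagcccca

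Levels are given as FPKM, the reads of a gene scaled to its length and to library size. The libraries held 14752400 to 17312255 reads assigned to genes. The median replicate SD on the log2 scale was 0.0867 among LPS libraries, 0.244 among controls and 0.259 among LPS + G-CDs libraries. Within the LPS + G-CDs group, the longest 2317 of the 11585 genes tested lay 0.264 above the group mean in replicate 1 and 0.257 below it in replicate 3 (medians, log2), and the shortest 2317 lay 0.26 below and 0.304 above. In control replicate 3 the longest lay 0.216 below and the shortest 0.172 above their group mean. Of 8 macrophage markers, 7 were above the minimum used for testing in the cells and *Mertk* had no read. Their summed level was 2532 to 3451 FPKM in control libraries, 3708 to 3908 with LPS and 3091 to 5088 with LPS + G-CDs, but single markers moved apart. LPS libraries were wholly above control for *Adgre1*, *Itgam*, *Ptprc* and *Cd14* (5.26-fold in the mean) and wholly below for *Csf1r* (2.24-fold) and *Lyz2* (1.86-fold). LPS + G-CDs libraries were wholly below LPS for *Adgre1* (1.6-fold), *Itgam* (1.37-fold) and *Ptprc* (1.49-fold), as they were for *Nos2* and for 15% of all genes tested. Those of *Csf1r*, *Cd68*, *Cd14* and *Lyz2* overlapped with LPS, at 1.08, 1.05, 1.14 and 0.856 times its mean. The part of these shifts in the results was not tested. No marker of neutrophils, T cells, B cells, fibroblasts, epithelium, endothelium or hepatocytes passed, and the highest single value was 2.15 FPKM for the neutrophil list. In bulk RNA, fewer expressing cells and less RNA per cell cannot be told apart.

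**Figure D1:**
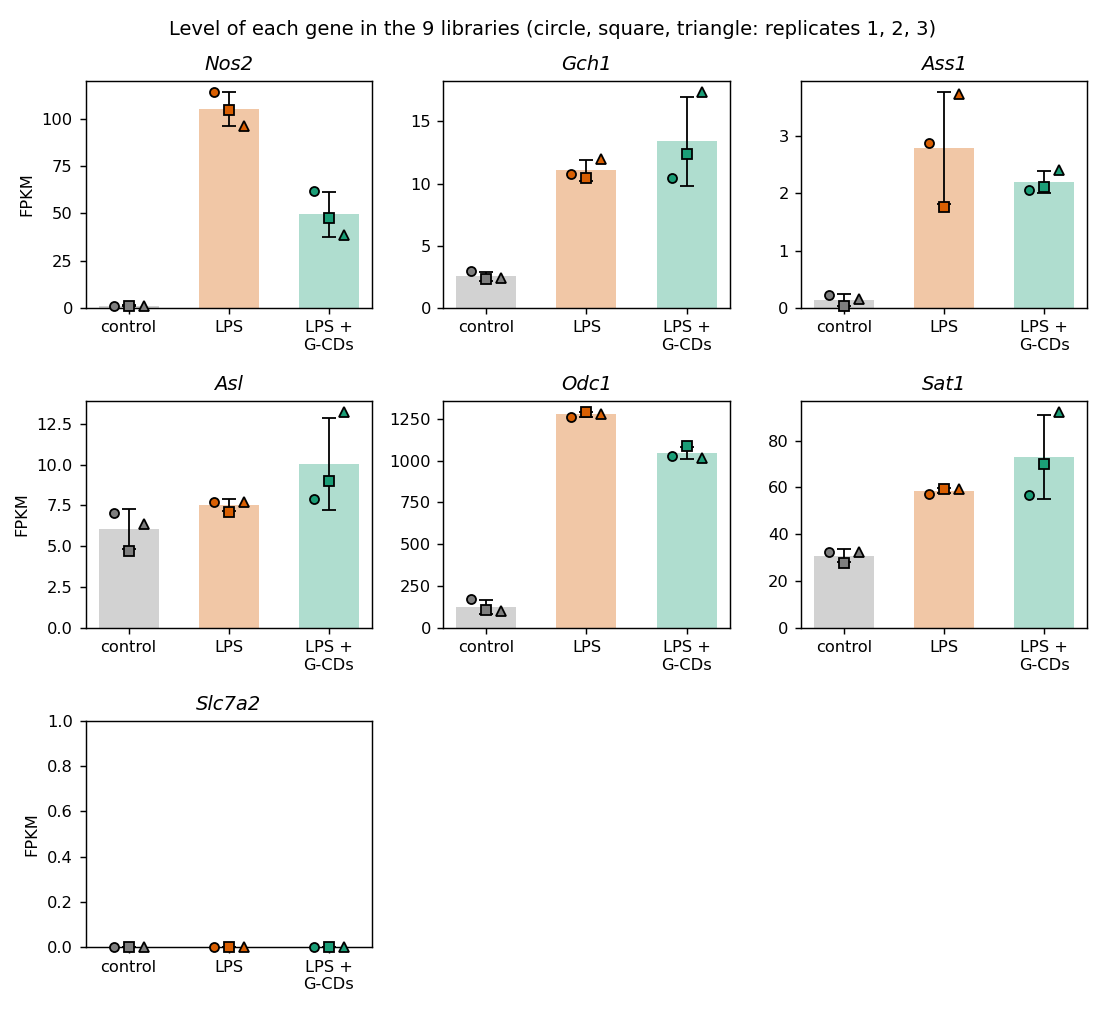
Level of 7 of the genes (y axis, FPKM, each panel with its own scale from 0) in control, LPS and LPS + G-CDs libraries. Bars are means of 3 libraries, error bars are ± SD and symbols are the libraries. *Nos2* lay between 96.5 and 114 FPKM with LPS and between 38.7 and 62.0 with LPS + G-CDs, and *Slc7a2* was at 0 throughout.

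*Nos2* was the member that moved most with LPS and the only 1 called different between LPS + G-CDs and LPS. The gene lies on the plus strand of chr11:78920787-78960254 (GRCm38). It stood at 1.22, 1.09 and 0.713 FPKM in control libraries 1, 2 and 3, at 114, 105 and 96.5 with LPS, and at 62.0, 47.8 and 38.7 with LPS + G-CDs. The 3 groups did not overlap. Behind these values were 56 to 101 reads in the control libraries, 6187 to 6972 with LPS and 2398 to 3953 with LPS + G-CDs. The mean rose 104-fold from 1.01 ± 0.264 to 105 ± 8.94 FPKM (SD, n = 3), a log2 change of 5.73 (SE 0.18, limma adjusted p = 6.82e-08). Control libraries alone would not have taken *Nos2* past the filter of 1 FPKM in 3 libraries, and in the fit without a filter the limma adjusted p was 8.45e-07.

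With LPS + G-CDs the mean of *Nos2* was 49.5 ± 11.7 FPKM (SD, n = 3), 2.13-fold lower than with LPS alone and 49.1-fold higher than in control cells. The single libraries stood at 58.9%, 45.4% and 36.8% of the LPS mean. Against LPS the log2 change was -1.10 (95% interval -1.51 to -0.68, limma adjusted p = 0.0465), and against control it was 4.63 (limma adjusted p = 3.15e-07). The p against LPS lies close to the threshold. It remained under 0.05 in 5 of 19 alternative analyses, which included the replicate block (0.0157) and removal of the gene-length trend (0.0323), and over all 19 it ran from 0.0155 to 0.249. The log2 change was negative in all 19, from -1.27 to -0.94. With 1 library left out at a time it stayed under 0.05 only without LPS + G-CDs replicate 1, and each of the other 8 libraries, control ones included, took the call away when it was left out.

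**Figure D2:**
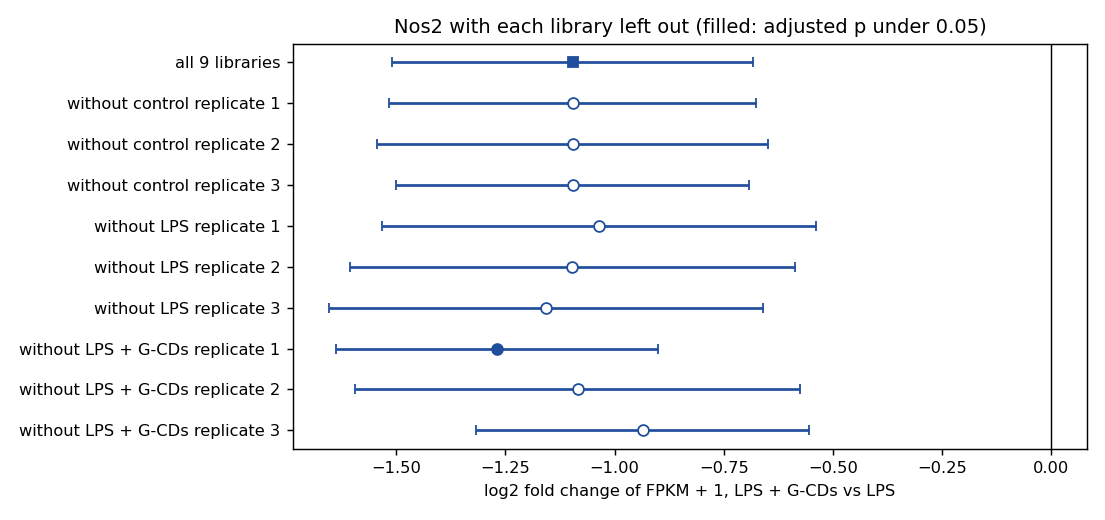
Change of *Nos2* between LPS + G-CDs and LPS (x axis, log2 fold change of FPKM + 1, with 95% intervals) in all 9 libraries and with each library left out. All 10 intervals lie below 0, and the filled points, adjusted p under 0.05, are those of all libraries and of the fit without LPS + G-CDs replicate 1.

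*Gch1* encodes GTP cyclohydrolase, the first enzyme of tetrahydrobiopterin synthesis (chr14:47153895-47189413, minus strand). Its libraries held 2.95, 2.29 and 2.40 FPKM in control cells, 10.8, 10.4 and 12.0 with LPS, and 10.5, 12.4 and 17.4 with LPS + G-CDs. Control libraries lay below all treated ones, and the treated groups overlapped. LPS raised the mean 4.34-fold, from 2.55 ± 0.354 to 11.1 ± 0.838 FPKM (SD, n = 3; log2 1.77, SE 0.17, limma adjusted p = 8.98e-05). Between LPS + G-CDs (13.4 ± 3.57 FPKM) and LPS no change was called (log2 0.23, 95% interval -0.17 to 0.63, limma adjusted p = 0.443).

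*Ass1* and *Asl* encode the enzymes that make arginine again from citrulline, argininosuccinate synthase (chr2:31470207-31520672, plus strand) and argininosuccinate lyase (chr5:130011258-130029247, minus strand). *Ass1* stood at 0.221, 0.0243 and 0.163 FPKM in control cells, at 2.88, 1.77 and 3.73 with LPS, and at 2.06, 2.12 and 2.42 with LPS + G-CDs. It was near absent in control cells, with 10, 1 and 7 reads, and the treated groups overlapped. The mean rose from 0.136 ± 0.101 to 2.79 ± 0.984 FPKM with LPS (SD, n = 3; log2 1.71). *Ass1* reached the testing level through the treated libraries alone, so its call against control in the filtered fit is no independent result. In the fit without a filter the limma adjusted p was 0.00126. Of its 50-base words, 55.3% also occur in the processed pseudogene *Gm5424*, which stood at 0.497 ± 0.024, 3.74 ± 0.615 and 2.15 ± 0.749 FPKM in the 3 groups, so the split of reads between both is uncertain.

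*Asl* held 7.05, 4.68 and 6.37 FPKM in control cells, 7.71, 7.08 and 7.72 with LPS, and 7.89, 9.01 and 13.2 with LPS + G-CDs. The groups did not overlap, but only narrowly, at 7.05 against 7.08 FPKM between control and LPS and at 7.72 against 7.89 between LPS and LPS + G-CDs. LPS against control was not called (log2 0.29, 95% interval -0.15 to 0.73, limma adjusted p = 0.301), nor was LPS + G-CDs against LPS (log2 0.35, 95% interval -0.09 to 0.79, adjusted p = 0.354). LPS + G-CDs against control was called at 10.0 ± 2.83 against 6.03 ± 1.22 FPKM (SD, n = 3; log2 0.64, limma adjusted p = 0.0414), a call that held in 9 of 19 alternatives (adjusted p 0.021 to 0.221).

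*Slc7a2* encodes the cationic amino acid transporter CAT-2, one of the carriers that bring arginine into cells (chr8:40862396-40922308, plus strand). It had 0 reads in each of the 9 libraries. A count of 0 allows up to 3 reads a library, which is 0.0175 to 0.0238 FPKM for this gene. This limit covers counting error only, as do the read counts given for other genes.

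*Odc1* encodes ornithine decarboxylase, the first enzyme of polyamine synthesis (chr12:17544794-17551505, plus strand), and had the highest level of the members in every group. It stood at 173, 104 and 97.2 FPKM in control cells, at 1265, 1294 and 1280 with LPS, and at 1030, 1090 and 1019 with LPS + G-CDs. The 3 groups did not overlap. The mean rose 10.2-fold with LPS, from 125 ± 41.9 to 1280 ± 14.8 FPKM (SD, n = 3; log2 3.40, SE 0.22, limma adjusted p = 6.3e-06). At 1047 ± 38.2 FPKM, LPS + G-CDs lay 18.2% below LPS, which was not called (log2 -0.29, 95% interval -0.79 to 0.21, limma adjusted p = 0.442).

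Of the 50-base words of *Odc1*, 42.2% occur in other genes. The pseudogene *Gm7993* (chr5:95974240-95975623), singled out after its values were seen, was listed at 134 ± 50.4, 974 ± 16.8 and 1120 ± 360 FPKM in control, LPS and LPS + G-CDs libraries (SD, n = 3). Its LPS + G-CDs libraries held 812, 1032 and 1516 FPKM, on both sides of the LPS libraries at 960 to 992. The level of *Odc1* therefore depends on how reads were divided between the copies, which was not given in the sources used here.

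*Sat1* encodes spermidine/spermine N1-acetyltransferase, which starts the breakdown and export of polyamines (chrX:155213132-155216449, minus strand). It held 32.5, 27.5 and 32.3 FPKM in control cells, 57.2, 59.4 and 59.4 with LPS, and 56.5, 70.2 and 92.4 with LPS + G-CDs. Control libraries lay below all treated ones, and the treated groups overlapped. LPS raised the mean 1.91-fold, from 30.8 ± 2.82 to 58.7 ± 1.25 FPKM (SD, n = 3; log2 0.91, limma adjusted p = 0.00406). LPS + G-CDs against LPS was not called (73.1 ± 18.1 FPKM, log2 0.28, 95% interval -0.11 to 0.68, adjusted p = 0.379). *Gch1*, *Asl* and *Sat1* each had their highest value of all 9 libraries in LPS + G-CDs replicate 3, the library in which *Nos2* was lowest within that group.

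Counted over the members past the filter, LPS against control called 5 of 6 higher and 0 lower, where 31.3% of all genes tested were called, 15.8% higher and 15.6% lower. *Ass1* and *Nos2* needed the treated libraries to pass the filter, and with both set aside 3 of 4 were called higher. All 4 of these had LPS libraries above every control library, as had 27.4% of all genes, while 25.1% lay wholly below. The calls of *Nos2*, *Odc1*, *Gch1* and *Sat1* held in every alternative. LPS + G-CDs against LPS called 0 higher and 1 lower, *Nos2*, where 0.492% of all genes were called, 0.25% higher and 0.242% lower. The study's thresholds, p under 0.01 and over 1.5-fold, were applied to the unadjusted limma p, as the paper does not name the test for its differential genes. The member past them was again *Nos2*, against 2.49% of all genes, 1.24% in each direction. Without overlap, 1 member lay higher (*Asl*) and 2 lower (*Nos2* and *Odc1*), against 12.9% and 15% of all genes.

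LPS + G-CDs against control called all 6 tested members higher, against 25.3% of all genes, 12.8% higher and 12.4% lower. With *Ass1* and *Nos2* set aside these were 4 of 4, which also lay wholly above control, as did 17.7% of genes, with 16.6% wholly below. This comparison shares its control libraries with the first and its treated libraries with the second. The log2 changes against control were 5.73 with LPS and 4.63 with LPS + G-CDs for *Nos2*, 3.40 and 3.11 for *Odc1*, 1.77 and 1.998 for *Gch1*, 1.71 and 1.496 for *Ass1*, and 0.91 and 1.20 for *Sat1*. The scale compresses the low gene *Ass1*, whose changes were 3.66 and 3.39 with a pseudocount of 0.1 and 4.54 and 4.25 with voom, above those of *Gch1* (2.12 and 2.37 with voom).

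**Figure D3:**
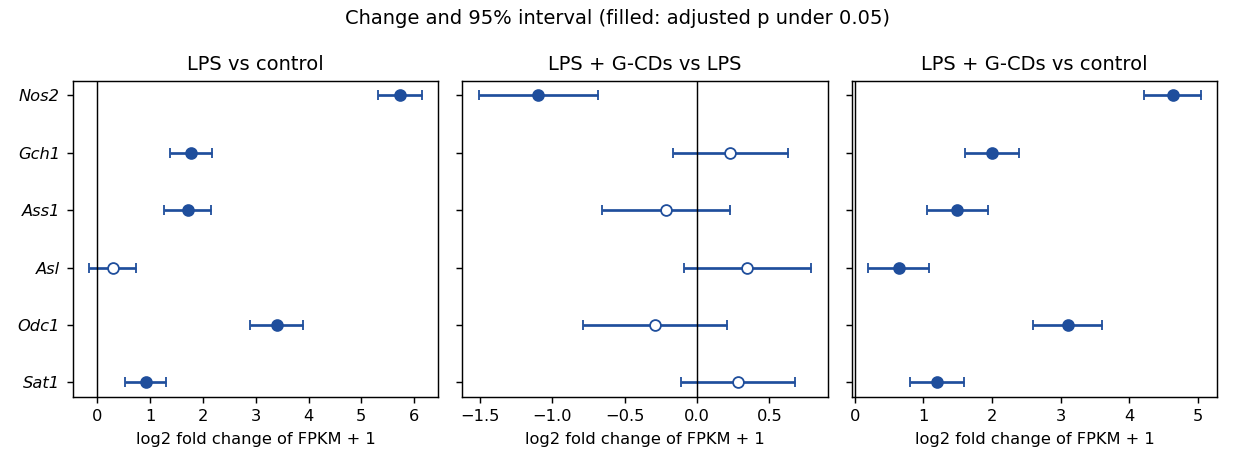
Change of the 6 members tested (x axis, log2 fold change of FPKM + 1, points with 95% intervals) in 3 comparisons, with filled points at adjusted p under 0.05. In LPS + G-CDs against LPS, only the interval of *Nos2* (-1.51 to -0.68) excludes 0.

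The order of levels per length changed between groups. In control cells *Odc1* was followed by *Sat1*, *Asl*, *Gch1* and *Nos2*, each separate from the next in all libraries, with *Ass1* below them. With LPS *Nos2* moved from the fifth to the second place, above *Sat1*, with every neighbour among the genes shown separate. With LPS + G-CDs the libraries of *Nos2* and *Sat1* overlapped, as did those of *Gch1* and *Asl*.

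The genes with profiles most like the members over the 9 libraries were found by the root mean square difference of centred log2(FPKM + 1) among 11585 genes, as a description. For *Nos2* they were *Nfkbiz* (0.207), *Il1rn* (0.28) and *Pdgfb* (0.394). *Nfkbiz*, which encodes an inducible IκB protein, had means of 3.33, 163 and 92.9 FPKM in control, LPS and LPS + G-CDs cells, and *Il1rn*, the interleukin-1 receptor antagonist, 1.15, 134 and 51.2. For *Odc1* the nearest were *Zc3h12a* (0.127), *Dusp2* (0.193) and *Gbp3* (0.198).

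A wider list of 58 pathway genes was read for the same comparisons, of which 38 passed the filter. LPS against control called 4 higher and 9 lower, with a median log2 change of -0.10 beside 0.02 over all genes, of which 15.8% were called higher and 15.6% lower. Among the 9 is *Paox*, which passed the filter through the control libraries alone. In the fit without a filter 3 of 51 were higher and 7 lower, beside 7.16% and 6.95% of all genes. With 1 library left out 7 to 17 of the 38 were called, beside 2478 to 4289 of all genes. With the gene-length trend removed 9 were higher and 10 lower, with a median of -0.04, beside 18.8% and 18.0% of all genes. With libraries rescaled to a common sum (TPM), which put the median of all genes at -0.23, 2 were higher and 14 lower, beside 8.66% and 26.4% of all genes. Of the neuronal and endothelial nitric oxide synthases, *Nos1* did not exceed 0.0335 FPKM and *Nos3* 0.224 FPKM in any library. Of the soluble guanylate cyclase genes that sense nitric oxide, *Gucy1a1*, *Gucy1a2* and *Gucy1b1* had 0 reads in all libraries, and *Gucy1b2* did not exceed 0.132 FPKM.

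Of the other tetrahydrobiopterin genes, 4 of 6 tested fell with LPS and none rose, with a median log2 change of -0.85, where 15.6% of all genes fell and 15.8% rose. *Spr*, sepiapterin reductase, which makes the last step of synthesis (log2 -1.005, adjusted p = 0.0399), and *Qdpr*, which recycles the cofactor (log2 -0.85, adjusted p = 0.0348), were among them in limma. The calls of *Spr* and *Qdpr* each held in 12 of 19 alternatives.

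Among carriers of arginine and ornithine 3 of 6 rose with LPS and 1 fell, beside the same shares over all genes. *Slc7a1*, which encodes CAT-1, stood at 25.1, 24.8 and 15.8 FPKM in control cells, 48.3, 45.9 and 43.8 with LPS, and 46.7, 28.4 and 18.8 with LPS + G-CDs. It rose with LPS (log2 1.06, limma adjusted p = 0.0258; 13 of 19 alternatives) and spread widely with LPS + G-CDs. At 11530 bases it belongs to those longest genes, whose drift in those replicates and in control replicate 3 is given above, and the part of that drift in its values was not tested. *Slc7a7* rose from 2.31 ± 0.593 to 5.45 ± 0.322 FPKM (log2 0.98, limma adjusted p = 0.00107), and *Slc3a2*, the heavy chain that pairs with it, from 52.3 ± 5.54 to 77.2 ± 4.38 (log2 0.56, adjusted p = 0.0213; 14 of 19 alternatives).

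In the polyamine and creatine branches, *Smox*, spermine oxidase, rose with LPS from 13.5 ± 1.34 to 37.0 ± 1.81 FPKM (SD, n = 3; log2 1.39, limma adjusted p = 4.43e-05). *Atp13a2*, a lysosomal polyamine exporter, fell from 58.6 ± 7.96 to 16.9 ± 1.15 (log2 -1.73, adjusted p = 1.19e-05). *Gamt*, which makes creatine, fell from 4.66 ± 1.54 to 1.00 ± 0.132 (log2 -1.47, adjusted p = 0.00147). Of the 15 polyamine genes tested 1 rose and 2 fell, and 1 of these, *Paox*, passed the filter through the control libraries alone, and of the 7 in the urea cycle, ornithine, proline and creatine group 0 rose and 1 fell, where 15.8% of all genes rose and 15.6% fell.

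LPS + G-CDs against LPS called none of the 38 in limma, beside 0.492% of all genes, and 4 had an unadjusted p under 0.05, as had 15.2% of all genes. By the study's thresholds, again applied to the limma p, 1 was higher and 0 lower, beside 1.24% of all genes in each direction. That gene was *Slc3a2*, at 111, 130 and 153 FPKM with LPS + G-CDs against 77.9, 72.6 and 81.2 with LPS, without overlap (log2 0.75, 95% interval 0.40 to 1.09, limma adjusted p = 0.101). It was called after removal of the gene-length trend (adjusted p = 0.0387) and without LPS + G-CDs replicate 1 (0.0366). Of the 38, 29 had a positive change, with a median of 0.20 beside 0.02 over all genes. With TPM scaling 21 had one, with a median of 0.05 beside -0.14 over all genes. Without LPS + G-CDs replicate 3 there were 24, with a median of 0.09 beside -0.002 over all genes. With any other library left out there were 28 to 30.

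LPS + G-CDs against control called 5 of the 38 higher and 6 lower, beside 12.8% and 12.4% of all genes. *Smox* (log2 1.75, limma adjusted p = 1.25e-05), *Slc3a2* (1.30, 0.00027), *Slc7a7* (1.00, 0.00114), *Ddah2* (0.92, 0.0248) and *Oaz2* (0.51, 0.038) were higher. *Atp13a2* (-1.67, 1.78e-05), *Gamt* (-1.09, 0.00872), *Slc25a15* (-0.55, 0.00723) and *Paox* (-0.43, 0.0348) were among those lower. *Paox* is the gene that passed the filter through control cells alone. The calls of *Ddah2*, *Oaz2* and *Paox* held in 11 of 18, 8 of 19 and 7 of 18 alternatives.

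**Figure D4:**
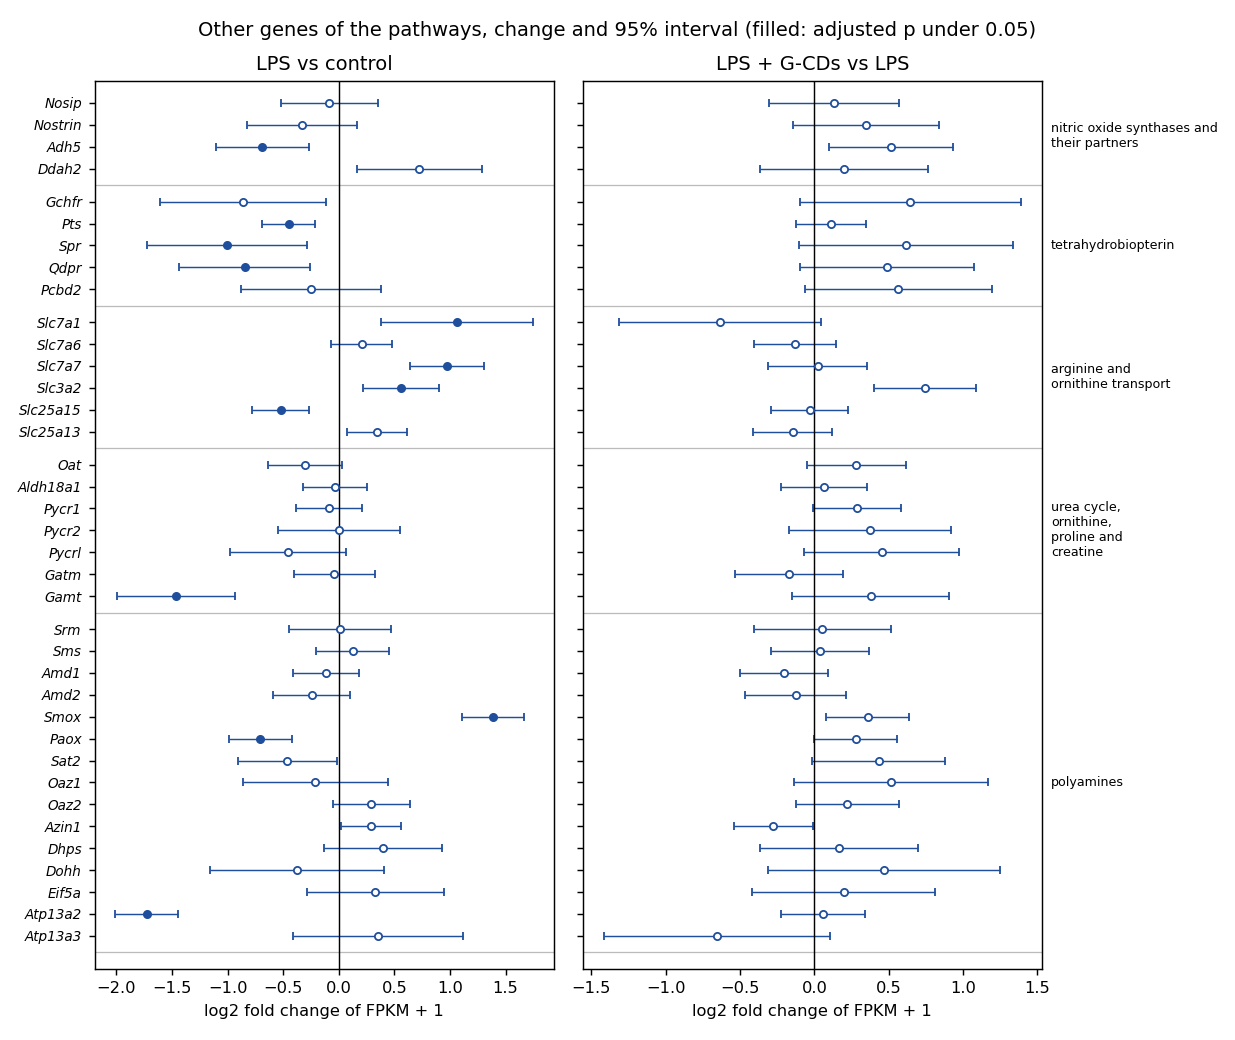
Change of 37 of the 38 other pathway genes tested (x axis, log2 fold change of FPKM + 1, with 95% intervals) with LPS against control and with LPS + G-CDs against LPS, grouped by function. Filled points have an adjusted p under 0.05, 12 on the left and none on the right.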

How the data were processed

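The authors deposited FPKM per gene for 9 libraries, with gene coordinates and a gene length as another column, made from poly-A selected RNA. The submitters' processing notes name GRCm38 and mm10, and the aligner and counter were not given in the sources used here. FPKM times gene length gave whole reads (within 0.05 read) in 100.0% of values. The library size that the deposited FPKM implies was 1.11 to 1.14 times the reads on genes in control, 0.929 to 0.936 times in LPS and 0.88 to 0.98 times in LPS + G-CDs libraries, so a scaling between libraries is already held in the values and TPM was tried as an alternative.

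The 11585 genes that reached an FPKM of 1 in 3 or more of the 9 libraries were fitted as log2(FPKM + 1) with limma 3.58.1 in R 4.3.3 (lmFit, eBayes with trend, 1 model of 3 groups). Tests were two-sided, with Benjamini-Hochberg adjustment over all genes and a call at adjusted p under 0.05. Fold changes on this scale understate those of low genes, and folds of means are of FPKM itself. The step was tested on simulated data. Alternatives were a pseudocount of 0.1, no filter, FPKM of at least 5, TPM, median-of-ratios, the 6 libraries of a comparison, limma's voom on recovered reads, no trend in eBayes, the replicate number as a block, removal of the gene-length trend and each library left out.

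The groups share replicate numbers of unstated meaning. Deviations from group means of same-numbered libraries correlated at 0.103, 0.137 and 0.113 between control and LPS, above the limit of 0.1 throughout, but at 0.095, 0.0801 and 0.143 between LPS and LPS + G-CDs and 0.28, 0.0575 and 0.653 between control and LPS + G-CDs, where control 2 with LPS + G-CDs 1 reached 0.504. Only control and LPS passed this limit for every number, and by as little as 0.103 against 0.1. With unmatched libraries reaching 0.504, these correlations cannot settle whether the numbers pair libraries.

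The members, lists, motifs and alternatives were chosen with earlier results of these data known. Named genes are the members, the 5 largest called rises and falls of the other lists per comparison, and the 3 profiles nearest to *Nos2* and *Odc1*. The synthases *Nos1* and *Nos3*, the guanylate cyclase genes and the pseudogenes were named outside this rule, after their values were seen. Results of 2 members and of 1 gene of the other lists are not reported here, although the counts over the lists include them. Shared 50-base words came from the longest transcripts of GENCODE release M21, and promoters from RefSeq (GRCm38.p6). Tables were prepared with Python 3.11.15 and pandas 2.3.3.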

Additional observations from a re-analysis of the deposited data

How the results depend on the processing

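No change that was called turned its direction in any alternative. The calls of *Nos2*, *Odc1*, *Gch1* and *Sat1* with LPS held in all alternatives, and that of *Ass1* in all that tested it. *Ass1* and *Nos2* needed the treated libraries to pass the filter. For these genes the fit without a filter is the one to read (limma adjusted p = 0.00126 and 8.45e-07). For LPS + G-CDs against LPS the count of members called, 1 with all libraries, was 0 with a pseudocount of 0.1, with no filter, with TPM, with median-of-ratios scaling, with the 6 libraries alone and with voom, and 0 to 1 with a library left out. With the replicate number as a block it was 1 (*Nos2*, adjusted p = 0.0157), the members called in the other comparisons were 5 and 6 as without it, and the other pathway genes called were 14, 0 and 11. For LPS against control 13 of the other pathway genes were called with all libraries, beside 3630 of all genes. With 1 library left out 7 to 17 were called. The low end was 8, 8 and 7 without LPS replicates 1, 2 and 3, beside 2511, 2478 and 2488 of all genes. With the length trend removed 19 were called, beside 4260 of all genes. For LPS + G-CDs against LPS 0 of the other pathway genes became 1 (*Slc3a2*) with the length trend removed and 0 to 1 with a library left out. For LPS + G-CDs against control 11 of them became 7 with the filter at FPKM 5 and with the 6 libraries alone. With a library left out they were 7 to 10, 7 without control replicate 2 or LPS + G-CDs replicate 2. Over all genes 2927 became 2153 at FPKM 5 (of 7747 tested), 1789 with the 6 libraries, and 2296 and 1914 without those replicates. TPM put the median log2 change of all genes at -0.23, -0.14 and -0.38 (0.02 each without it) in LPS against control, LPS + G-CDs against LPS and LPS + G-CDs against control, and split the other pathway genes called in the last into 3 higher and 13 lower in place of 5 and 6. Of all genes 6.57% were then called higher and 27.8% lower in that comparison, in place of 12.8% and 12.4%. The causes were not tested. Over all genes, LPS + G-CDs against LPS called 57, and 11 to 256 with a library left out. Of the members tested, depth limits *Ass1* in control cells most, at 1 to 10 reads a library.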
